A study of Rattus norvegicus with 4 samples.

Results

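The genes described here are 37 genes of the integrated stress response and the unfolded protein response, chosen by name, each with at least 40 counts over the 4 libraries of the series. All 37 passed that minimum, of 12228 genes that passed it and 34034 genes listed, and the lowest total was the 393 counts of Atf3. They were kept as separate groups: 21 integrated stress response genes, of which 10 encode amino acid enzymes or transporters, and 16 endoplasmic reticulum genes, which are chaperones, folding enzymes and degradation factors together with the transcription factor Xbp1.

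The 4 libraries came from mesenchymal stem cells of rat femurs, stromal cells that can form bone, all grown in osteogenic induction medium and taken at day 1 after 24 h of treatment. The young control was young cells given vehicle, and the senescent control was senescent cells given vehicle. The other two libraries were senescent cells given trichostatin A (TSA), which inhibits histone deacetylases, either alone or together with phenamil, an amiloride derivative. Each condition was 1 library, no library held phenamil alone, and the series' design text names benzyl ether where the sample labels name phenamil. The labels used here do not say how the cells became senescent, which doses were given, or the age, strain and number of the animals.

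Cells slow translation when a kinase phosphorylates the initiation factor eIF2, and the transcription factor ATF4 is then translated and switches on genes of amino acid synthesis, amino acid import and feedback. Misfolded protein in the endoplasmic reticulum is sensed by PERK, IRE1 and ATF6. PERK feeds into ATF4, while IRE1 splices Xbp1 messenger RNA and ATF6 is cleaved, and these last arms raise chaperones and degradation factors. Bone-forming cells secrete large amounts of collagen, so their endoplasmic reticulum carries a heavy folding load.

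The endoplasmic reticulum group shares a sequence feature that the choice of genes did not use. Promoter windows of 300 bases (250 before to 50 after the annotated start, RefSeq, build GRCr8) were found for 33 of the 37 genes. The endoplasmic reticulum stress response element, which is CCAAT, then any 9 bases, then CCACG, is known as a binding site for ATF6 together with NF-Y. Read on both strands, it lay in the windows of 7 of 13 matched endoplasmic reticulum genes and of 0 of 20 matched integrated stress response genes. It occurred in 22 of all 33469 windows, which is 0.0657%, and among the 11315 windows of genes compared here the share was 0.141%. The genes were chosen for their known role, so this describes them and is no test. The 8 matches are shown in the direction of the motif, with the fixed ends in capitals, the spacer of 9 bases in lower case, and the first and last base counted from the annotated start:

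Hspa5 (-43 to -25): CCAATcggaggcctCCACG
Hsp90b1 (-176 to -158): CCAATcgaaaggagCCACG
Hsp90b1 (-72 to -54): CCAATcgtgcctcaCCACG
Creld2 (-145 to -127): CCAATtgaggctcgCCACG
Canx (-230 to -212): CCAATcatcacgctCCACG
Xbp1 (-65 to -47): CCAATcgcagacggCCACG
Dnajc3 (-133 to -115): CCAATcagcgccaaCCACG
Calr (-232 to -214): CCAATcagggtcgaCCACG

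The fixed ends were the same by construction and no pair of spacers was alike over its whole length. A related motif, element II, which is ATTGG, then any 1 base, then CCACG, lay in the windows of 2 of the 13 genes, Herpud1 and Hyou1 (in 1 of its 2 windows), and in 0.0508% of all windows. The unfolded protein response element TGACGTGG lay in that same Hyou1 window alone, where it overlapped an element II match, and in 0.595% of all windows. TGATGNAA, the core of the element that ATF4 and C/EBP proteins share, lay in 3 of 20 integrated stress response windows (Chac1, Nupr1 and Slc7a1), in Herpud1 of the other group, and in 3.98% of all windows. The windows of Atf5, Atf4, Asns and Ddit3 held none of the 4 motifs, which says only that these letters are not in these 300 bases.

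**Figure D1:**
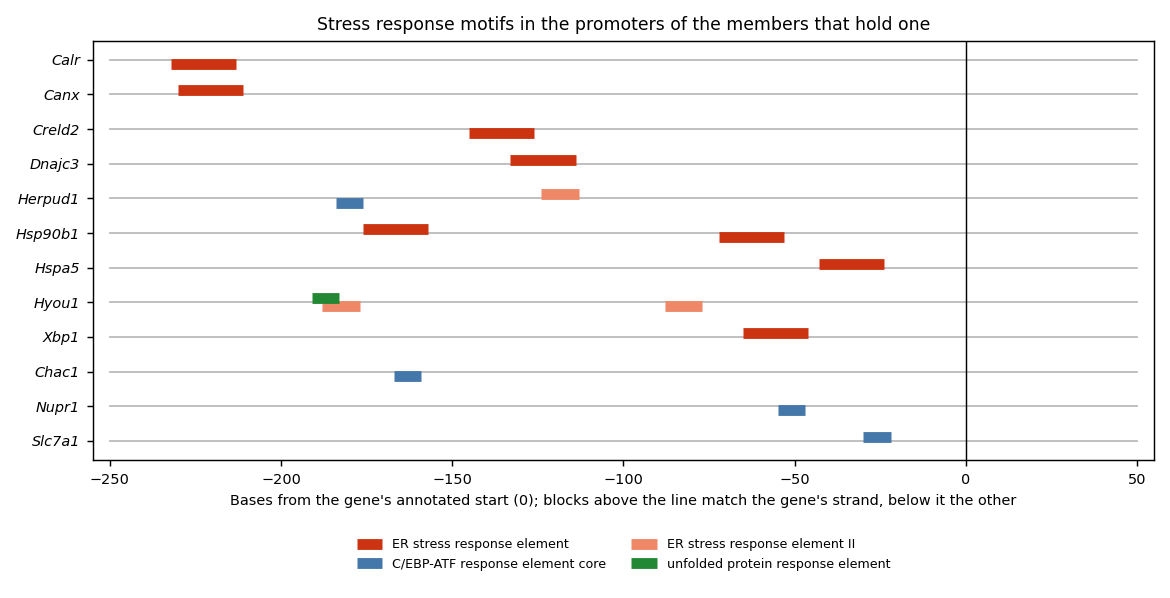
Positions of 4 stress response motifs in the 300-base promoter windows of the 12 genes that hold one, in bases from the annotated start. Blocks above a line match the gene's strand and blocks below it the other strand, and red blocks, the endoplasmic reticulum stress response element, appear in 7 endoplasmic reticulum genes, with 2 in Hsp90b1.

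Whole windows are shown for genes that carry the results below or that show how the motifs combine, 5′ to 3′ on the gene's strand, with every match to any of the 4 motifs in capitals:

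Hspa5, chr3:38452766-38453065, plus strand: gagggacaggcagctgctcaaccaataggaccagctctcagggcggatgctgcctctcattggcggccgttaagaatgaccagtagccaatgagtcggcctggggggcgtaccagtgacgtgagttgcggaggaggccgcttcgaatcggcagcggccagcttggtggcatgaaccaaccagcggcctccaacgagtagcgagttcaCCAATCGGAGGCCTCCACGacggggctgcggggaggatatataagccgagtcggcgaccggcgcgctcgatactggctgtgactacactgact
Hsp90b1, chr7:23012244-23012543, minus strand: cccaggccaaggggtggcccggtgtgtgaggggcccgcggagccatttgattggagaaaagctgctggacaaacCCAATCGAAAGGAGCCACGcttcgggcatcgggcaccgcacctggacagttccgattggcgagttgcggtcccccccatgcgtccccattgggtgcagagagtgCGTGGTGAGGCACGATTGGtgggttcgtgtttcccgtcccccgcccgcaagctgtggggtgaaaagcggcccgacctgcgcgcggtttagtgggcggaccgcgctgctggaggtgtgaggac
Calr, chr19:40213117-40213416, plus strand: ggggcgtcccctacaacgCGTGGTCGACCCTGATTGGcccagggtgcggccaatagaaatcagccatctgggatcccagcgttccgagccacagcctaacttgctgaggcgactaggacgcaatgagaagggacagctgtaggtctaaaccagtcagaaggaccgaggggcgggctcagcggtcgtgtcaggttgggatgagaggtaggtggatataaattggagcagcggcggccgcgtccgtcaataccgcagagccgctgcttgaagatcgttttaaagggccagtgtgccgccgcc
Creld2, chr7:121789134-121789433, plus strand: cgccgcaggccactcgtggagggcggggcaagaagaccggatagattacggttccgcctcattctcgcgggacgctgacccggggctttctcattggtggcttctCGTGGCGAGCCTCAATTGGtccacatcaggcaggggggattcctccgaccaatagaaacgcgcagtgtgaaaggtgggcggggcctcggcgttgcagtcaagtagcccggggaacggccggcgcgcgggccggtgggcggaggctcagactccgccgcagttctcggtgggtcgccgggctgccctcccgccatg
Herpud1, chr19:10614658-10614957, minus strand: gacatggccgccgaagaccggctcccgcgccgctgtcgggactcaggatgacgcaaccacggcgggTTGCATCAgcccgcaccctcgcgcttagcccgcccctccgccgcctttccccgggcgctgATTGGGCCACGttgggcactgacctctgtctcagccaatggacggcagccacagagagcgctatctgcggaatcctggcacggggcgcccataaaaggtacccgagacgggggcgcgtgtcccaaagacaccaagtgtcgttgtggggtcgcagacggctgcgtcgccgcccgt
Nupr1, chr1:190645852-190646151, minus strand: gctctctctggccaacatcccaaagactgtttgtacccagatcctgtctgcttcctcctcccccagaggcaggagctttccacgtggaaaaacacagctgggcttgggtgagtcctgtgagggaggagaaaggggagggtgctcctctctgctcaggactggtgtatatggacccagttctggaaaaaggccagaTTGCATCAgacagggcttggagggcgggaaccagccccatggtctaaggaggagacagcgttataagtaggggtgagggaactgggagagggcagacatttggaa

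Total counts were 9873894 to 11024227 per library. Library sizes were adjusted with trimmed means of M-values (TMM), and levels are given as CPM, the count per 1e+06 counts of the adjusted library size. In these libraries of 3′ ends a transcript gives reads from 1 end, so counts were not divided by length, and no level is compared between genes. The 37 genes together took 0.810% to 0.831% of all counts. Stromal markers were present as labelled: all 10 were detected in every library, with summed levels of 2358 to 2685 CPM. Of 10 leukocyte markers the summed level was 5.23 CPM for young cells, 6.26 for senescent control cells, 10.5 with TSA and 10.3 with TSA and phenamil. Most of it was Cd14, while the defining marker Ptprc had 0, 0, 0 and 3 counts. The number of these markers at 0 counts was 8, 8, 5 and 5 in the same order. Of 6 endothelial markers the summed counts were 0, 0, 3 and 4, with Pecam1, Vwf and Emcn at 0 in every library, and of 5 erythroid markers they were 4, 14, 18 and 20, with Hbb at 0 in every library. A count of 0 allows up to 3 counts in a library, and the part of these cells in the results was not tested. Mitochondrially encoded and ribosomal protein genes took 17.0%, 17.9%, 18.3% and 19.1% of counts in the same order; their part in the results was not tested. In such bulk RNA, fewer cells of a type and less RNA per cell cannot be told apart.

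Each ratio below compares 2 libraries rather than 2 conditions, and the parentheses hold its exact 95% interval, which covers counting error alone. As no condition has a replicate, there is no spread between replicates and no p-value. A gene is called higher or lower when its interval excludes no change, and past 1.2-fold when the whole interval lies beyond 1.2-fold in either direction. Abundant genes have narrow intervals, so the share of genes called higher or lower is also given for the 1740 genes with at least 4078 counts, the median of the 37. The senescent control library is used in 3 of the 4 comparisons and each TSA-exposed library in 2, so a deviation of 1 library enters each comparison that uses it.

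As a whole the genes varied little between the libraries. The ratio of the highest to the lowest library had a median of 1.16 over the 37 genes and ran from 1.05 for Canx to 1.67 for Creld2. Over the 1740 abundant genes the median was 1.19, and over the 8103 genes with at least 393 counts it was 1.25. The TSA library was the lowest for 10 of the 21 integrated stress response genes (47.6%) and the highest for 1 of them, Psat1. Among the abundant genes it was the lowest for 27.3% and the highest for 35.9%. Of the 16 endoplasmic reticulum genes, 7 were highest in the TSA library and 7 lowest in the young control (43.8% each), beside 35.9% and 38.0% of the abundant genes. With total counts as the scale these numbers were 9 of 21 lowest with TSA, 8 of 16 highest with TSA and 6 of 16 lowest in the young control.

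Among the transcription factors, Atf5 differed most between libraries. It encodes a basic leucine zipper protein related to ATF4 and translated by a similar mechanism under stress. Atf5 stood at 284 CPM (274 to 294) in young cells, 212 (203 to 221) in the senescent control, 205 (196 to 214) with TSA and 307 (296 to 318) with TSA and phenamil. The young control and the TSA + phenamil library were thus high, the other two were low, and the intervals of the high pair did not meet those of the low pair. The senescent control was at 0.747 (0.708 to 0.788) times the young control, and the TSA library at 0.967 (0.911 to 1.03) times the senescent control. The TSA + phenamil library was at 1.45 (1.37 to 1.53) times the senescent control and 1.497 (1.42 to 1.58) times the TSA library. In the assembly GRCr8 the span of Atf5 overlaps those of Nup62 and Il4i1, and without a stated use of strand, reads from shared bases cannot be told apart. Nup62 had 279, 286, 316 and 316 counts in the order of the libraries above and Il4i1 at most 7, against 3146, 2333, 2032 and 3221 counts of Atf5.

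Atf4, the central factor of the response, followed a smaller course. Its levels were 591 CPM in young cells, 532 in the senescent control, 588 with TSA and 619 with TSA and phenamil, so only the senescent control stood low. The ratio was 0.901 (0.869 to 0.933) for senescent against young control and 1.105 (1.07 to 1.15) for TSA against senescent control. It was 1.16 (1.12 to 1.21) for TSA + phenamil against senescent control and 1.05 (1.02 to 1.09) against TSA, the last being 1.03 (0.991 to 1.06) when scaled by total counts. These are levels of messenger RNA, while ATF4 is known to be set largely by translation, which was not measured.

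Nupr1, a small stress-induced chromatin cofactor, was highest with TSA and phenamil. Its levels were 371 CPM in young cells, 415 in the senescent control, 431 with TSA and 544 with TSA and phenamil. The senescent control was higher than the young control at 1.12 (1.07 to 1.17), and TSA was at 1.04 (0.995 to 1.08) times the senescent control. The TSA + phenamil library was at 1.31 (1.26 to 1.36) times the senescent control and 1.26 (1.21 to 1.32) times TSA. The TTGCATCA run in the Nupr1 window shown above is the reverse complement of the ATF4 and C/EBP core, and lies 55 to 48 bases before the start.

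The other transcription factors differed less. Ddit3, which encodes the death-linked factor CHOP, was at 76.3, 73.5, 71.4 and 73.0 CPM, and its interval included no change in all 4 comparisons, the ratios being 0.964 (0.875 to 1.06), 0.971 (0.876 to 1.07), 0.993 (0.899 to 1.10) and 1.02 (0.923 to 1.13). The span of Ddit3 overlaps that of Mars1, which had 1242, 1330, 1197 and 1481 counts, against 846, 810, 708 and 767 of Ddit3. The span of Shmt2 overlaps that of Ndufa4l2 (424, 376, 354 and 343 counts) and the span of Pdia3 that of Catsper2 (35, 14, 23 and 32). Reads from bases that a pair shares cannot be told apart without a stated use of strand. Cebpb, a partner of ATF4, was higher in the senescent than in the young control at 1.19 (1.05 to 1.34), and Cebpg, another partner, was lower at 0.881 (0.814 to 0.954). Atf3, an early stress-induced repressor, had 93 to 109 counts per library, so its intervals were wide, with 0.878 (0.660 to 1.17) in the same comparison.

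**Figure D2:**
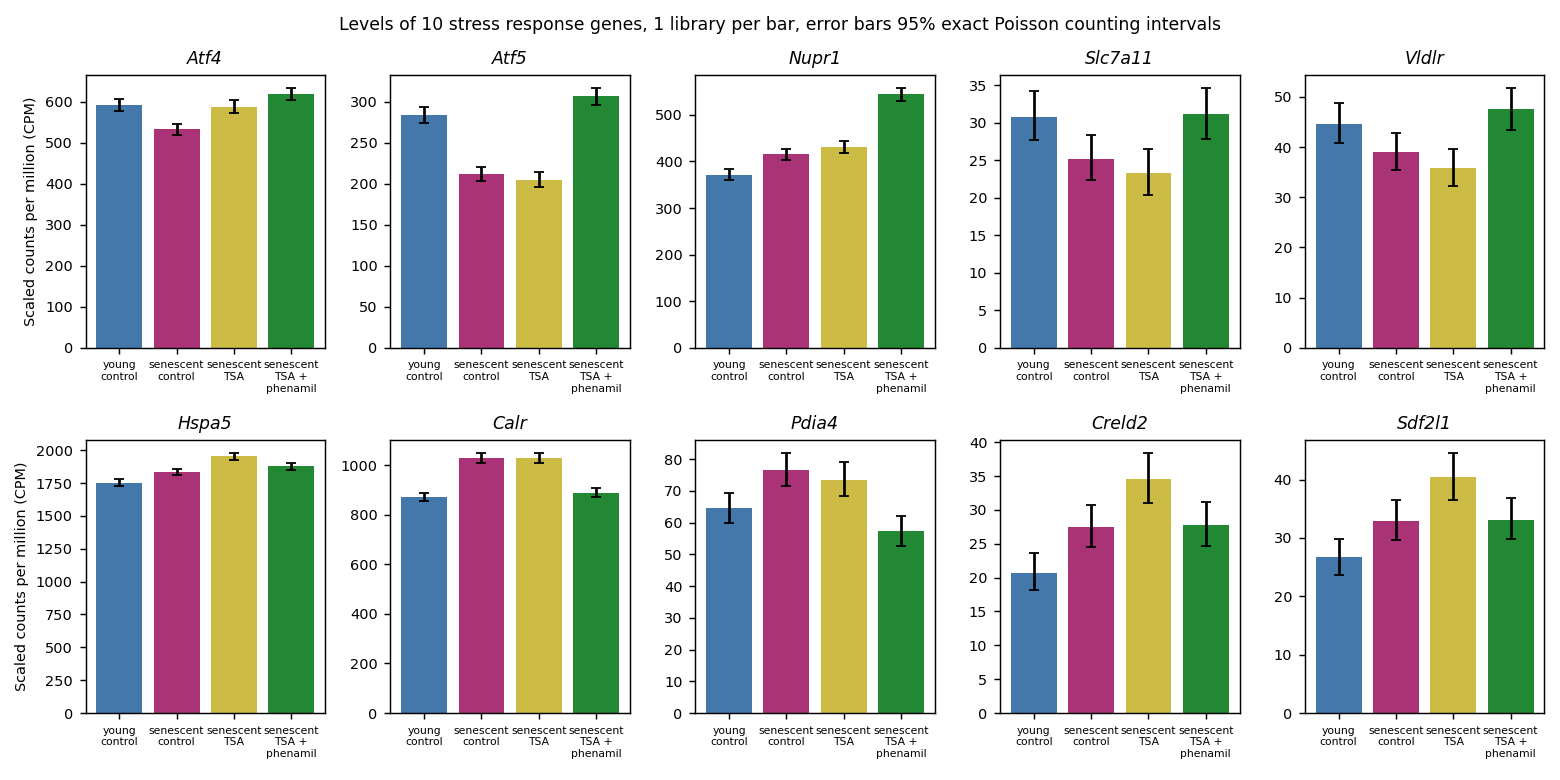
Levels of 10 of the genes in CPM after TMM scaling, 1 bar per library, with 95% exact Poisson counting intervals as error bars. Atf5 is high in the young control and with TSA and phenamil (284 and 307 CPM), Nupr1 is highest with TSA and phenamil, and Pdia4 is lowest there.

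The enzymes of amino acid synthesis stayed close to level. Asns, asparagine synthetase and a standard ATF4 target, was at 123, 127, 127 and 136 CPM, with ratios of 1.03 (0.959 to 1.12), 1.0001 (0.926 to 1.08), 1.07 (0.997 to 1.16) and 1.07 (0.995 to 1.16) in the order of the comparisons. None of these intervals excluded no change. The serine synthesis genes Phgdh, Psat1 and Psph and the mitochondrial one-carbon genes Shmt2 and Mthfd2 ran from 0.968 to 1.07 for senescent against young control, and 0 of these 6 enzyme genes was higher or lower there. Shmt2 was lower than in the senescent control with TSA at 0.898 (0.815 to 0.989) and with TSA and phenamil at 0.896 (0.815 to 0.985). Mthfd2 was lower with TSA and phenamil than with TSA, at 0.932 (0.883 to 0.985).

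Amino acid transporters differed more. Slc7a11, the cystine importer that supplies glutathione synthesis, was at 30.8, 25.2, 23.3 and 31.1 CPM, high in the young control and with TSA and phenamil and low in the other two. Its ratio was 0.819 (0.696 to 0.962) for senescent against young control, 1.23 (1.05 to 1.45) for TSA + phenamil against senescent control and 1.34 (1.13 to 1.59) against TSA. Slc3a2, the heavy chain that both Slc7a11 and Slc7a5 need, was lower in the senescent than in the young control at 0.907 (0.865 to 0.952), and so was the leucine importer Slc7a5 at 0.811 (0.665 to 0.988). The arginine and lysine importer Slc7a1 was lower with TSA at 0.844 (0.772 to 0.922) and with TSA and phenamil at 0.892 (0.819 to 0.973) times the senescent control.

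Among the feedback genes and other stress targets, Vldlr, a lipoprotein receptor, was at 44.6, 39.0, 35.8 and 47.5 CPM high and low in the same libraries as Atf5 and Slc7a11. It was at 0.875 (0.767 to 0.998) for senescent against young control, 1.22 (1.07 to 1.39) for TSA + phenamil against senescent control and 1.33 (1.16 to 1.53) against TSA. Sesn2, an inhibitor of mTORC1 signalling, was at 138, 121, 115 and 129 CPM, with 0.873 (0.811 to 0.940) for senescent against young control and 1.12 (1.04 to 1.21) for TSA + phenamil against TSA. Ppp1r15a, the induced subunit that directs the removal of phosphate from eIF2, was at 36.4, 40.1, 32.5 and 33.7 CPM. It was lower than in the senescent control with TSA at 0.809 (0.699 to 0.936) and with TSA and phenamil at 0.840 (0.728 to 0.968). Chac1, which degrades glutathione, was higher in the senescent than in the young control at 1.14 (1.02 to 1.27).

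In the endoplasmic reticulum group the main chaperones were near level. Hspa5 (BiP), the chaperone that also holds the sensors inactive, stood at 1754, 1835, 1952 and 1879 CPM, lowest in the young control and highest with TSA. Its ratios were 1.05 (1.03 to 1.07), 1.06 (1.04 to 1.09), 1.02 (1.004 to 1.04) and 0.962 (0.943 to 0.982), so every interval excluded no change while no ratio was as large as 1.07-fold. Scaled by total counts the third was 1.004 (0.984 to 1.02). Hsp90b1 (GRP94) was at 591, 608, 566 and 559 CPM, with 1.03 (0.994 to 1.06), 0.931 (0.898 to 0.965), 0.919 (0.887 to 0.952) and 0.988 (0.952 to 1.02). Both hold the stress response element in their windows.

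Calreticulin (Calr), which binds sugar chains and calcium, was at 872, 1029, 1030 and 890 CPM. The senescent control and TSA libraries were high and the other two low, the reverse of Atf5. The ratios were 1.18 (1.15 to 1.21) for senescent against young control, 1.001 (0.975 to 1.03) for TSA against senescent control, 0.865 (0.841 to 0.889) for TSA + phenamil against senescent control and 0.864 (0.840 to 0.888) against TSA. Its membrane-bound relative calnexin (Canx) was at 419, 409, 400 and 405 CPM with no interval that excluded no change, except that total counts gave 0.957 (0.918 to 0.997) for senescent against young control. Both windows hold the element.

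Pdia4, a protein disulfide isomerase, had a course like that of Calr and was past 1.2-fold once. Its levels were 64.5, 76.6, 73.5 and 57.2 CPM, lowest with TSA and phenamil. The ratio was 1.19 (1.07 to 1.31) for senescent against young control, 0.959 (0.867 to 1.06) for TSA against senescent control, 0.747 (0.672 to 0.830) for TSA + phenamil against senescent control and 0.779 (0.698 to 0.869) against TSA. The isomerase genes Pdia6 and Pdia3 were also lower with TSA and phenamil than with TSA, at 0.935 (0.876 to 0.997) and 0.946 (0.903 to 0.991).

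Creld2 and Sdf2l1 were highest with TSA. Creld2, a secreted folding factor, was at 20.7, 27.5, 34.6 and 27.8 CPM, and its span overlaps that of Alg12. Alg12 had 154, 142, 134 and 162 counts, against 230, 303, 343 and 292 of Creld2. Sdf2l1, a partner of Hspa5, was at 26.7, 32.9, 40.4 and 33.1 CPM. For both Creld2 and Sdf2l1, the young control was lowest and the senescent control and the TSA + phenamil library were nearly equal. Creld2 was at 1.33 (1.11 to 1.58) for senescent against young control, 1.26 (1.07 to 1.47) for TSA against senescent control and 0.804 (0.686 to 0.943) for TSA + phenamil against TSA. Sdf2l1 had 1.23 (1.05 to 1.44), 1.23 (1.06 to 1.42) and 0.820 (0.708 to 0.949) in the same comparisons. Manf, a secreted protein that binds Hspa5, ran from 132 CPM in the young control to 156 CPM with TSA.

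The remaining genes of this group showed other courses. Hyou1, a large chaperone and exchange factor for Hspa5, was at 59.3, 58.7, 70.3 and 71.7 CPM, high in both TSA-exposed libraries, with 1.196 (1.07 to 1.33) for TSA and 1.22 (1.097 to 1.36) for TSA + phenamil against the senescent control. Edem1, which sends misfolded glycoproteins to degradation, was lower in both at 0.863 (0.780 to 0.954) and 0.899 (0.816 to 0.991). Xbp1 was at 91.2, 94.8, 88.0 and 83.6 CPM, with 1.04 (0.952 to 1.13), 0.929 (0.848 to 1.02), 0.882 (0.805 to 0.966) and 0.950 (0.864 to 1.04). Gene counts do not separate its spliced from its unspliced form. The degradation factor Herpud1 was lower in the senescent than in the young control at 0.909 (0.855 to 0.965). The co-chaperone genes Dnajc3 and Dnajb9 ran from 162 to 185 CPM and from 15.0 to 17.1 CPM.

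Senescent against young control, the groups leaned to opposite sides. Of the 21 integrated stress response genes 3 were higher and 8 lower, with a median log2 ratio of -0.047. Their 10 amino acid genes gave 0 higher and 3 lower, and the other 11 gave 3 and 5. Of the 16 endoplasmic reticulum genes 9 were higher and 1 lower, with a median of 0.082, and the median over all 12228 genes was 0.0046. Over the abundant genes the median was 0.036, so they leaned to the same side as the endoplasmic reticulum genes. Over all genes 18.1% were higher and 16.7% lower, and over the abundant genes 39.3% and 24.4%, so the 56.25% of endoplasmic reticulum genes that were higher and the 38.1% of integrated stress response genes that were lower stood above both shares. Past 1.2-fold there was 1 gene, Atf5, beside 6.94% of all genes, with 3.56% higher and 3.39% lower. With total counts as the scale, 7 endoplasmic reticulum genes were higher and 2 lower, with a median of 0.056. That scaling changed the split of all genes, by the interval that excludes no change, from 2219 higher and 2047 lower to 1955 and 2352.

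TSA against senescent control had the fewest of the 37 genes called by either rule. By the interval that excludes no change 11 of the 37 were called, near the 30.5% of all genes and below the 57.5% of abundant genes. All genes also had their lowest share by that rule here, beside 34.9%, 31.6% and 33.7% in the other comparisons. No gene of the 37 was past 1.2-fold, beside 5.52% of all genes. No p-value exists here, and by the counting interval alone 6 of the 37 were higher and 5 lower, while of the abundant genes 31.4% were higher and 26% lower. Of the integrated stress response genes 1, Atf4, was higher and 3 lower, with a median log2 ratio of -0.043. Their 10 amino acid genes gave 0 higher and 2 lower, and the other 11 gave 1 and 1. Scaled by total counts, 2 of the 21 were higher and 3 lower. Of the endoplasmic reticulum genes 5 were higher and 2 lower, with a median of 0.015, and all genes had -0.0029, with 15.7% higher and 14.7% lower. The abundant genes had a median of 0.0082.

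TSA + phenamil against senescent control placed Atf5 and Nupr1 past 1.2-fold higher and Pdia4 past 1.2-fold lower, 3 of 37 genes beside 5.35% of all genes, with 2.85% higher and 2.49% lower. Among the integrated stress response genes 5 were higher and 3 lower, with a median log2 ratio of 0.022. Their 10 amino acid genes gave 1 higher and 2 lower, and the other 11 gave 4 and 1. Among the endoplasmic reticulum genes 2 were higher and 5 lower, with a median of -0.024, which became 1 higher and 7 lower when scaled by total counts. By the same rule that scaling changed the split of all genes from 1930 higher and 1939 lower to 1619 and 2297. All genes had a median of -0.0006, with 15.8% higher and 15.9% lower, and of the abundant genes 29.3% were higher and 31.1% lower. The abundant genes had a median of -0.0026. The integrated stress response median became -0.0062 with total counts, so its sign depends on the scale, while the median of all genes became -0.029.

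TSA + phenamil against TSA, the pair that differs by phenamil as labelled, gave medians of opposite sign. Of the integrated stress response genes 6 were higher and 1 lower, with a median log2 ratio of 0.062, and of the endoplasmic reticulum genes 1 was higher and 8 lower, with a median of -0.065. The 10 amino acid genes gave 1 higher and 1 lower, and the other 11 integrated stress response genes gave 5 and 0. All genes had a median of 0.0012, with 16.6% higher and 17.1% lower, and of the abundant genes 29.1% were higher and 34.5% lower. The abundant genes had a median of -0.020, of the same sign as that of the endoplasmic reticulum genes. The 28.6% of integrated stress response genes that were higher is thus near the share of abundant genes, with 4.76% lower, while of the endoplasmic reticulum genes 6.25% were higher and 50% lower. Scaled by total counts the numbers were 5 and 2 for the first group and 0 and 9 for the second. Atf5 and Nupr1 were past 1.2-fold higher, 2 of 37 beside 7.35% of all genes, with 3.96% higher and 3.39% lower, and Nupr1 no longer was when scaled by total counts. Over all genes that scaling changed the split past 1.2-fold from 484 higher and 415 lower to 393 and 506. By the interval that excludes no change it went from 2029 and 2094 to 1658 and 2528.

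**Figure D3:**
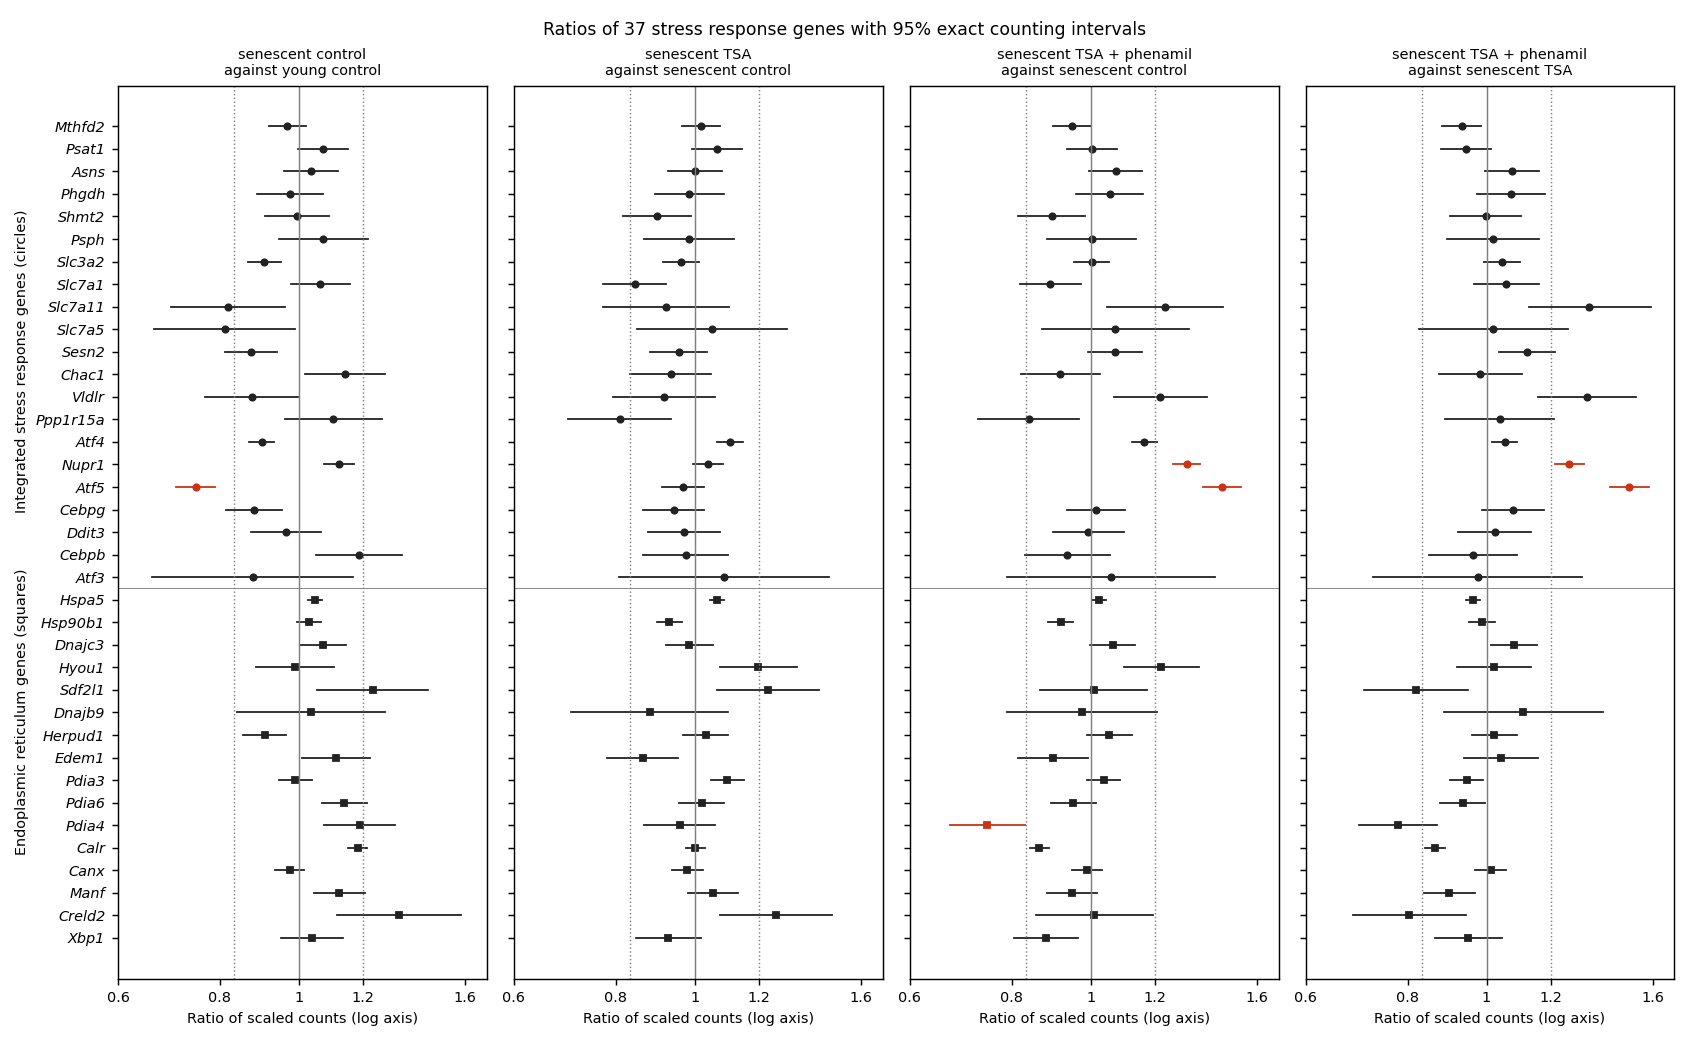
Ratios of scaled counts for the 37 genes in the 4 comparisons on a log axis, with 95% exact counting intervals. Circles are integrated stress response genes, squares endoplasmic reticulum genes, dotted lines mark 1.2-fold, and red marks intervals wholly past it: Atf5 3 times, Nupr1 in 2 comparisons and Pdia4 once.

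**Figure D4:**
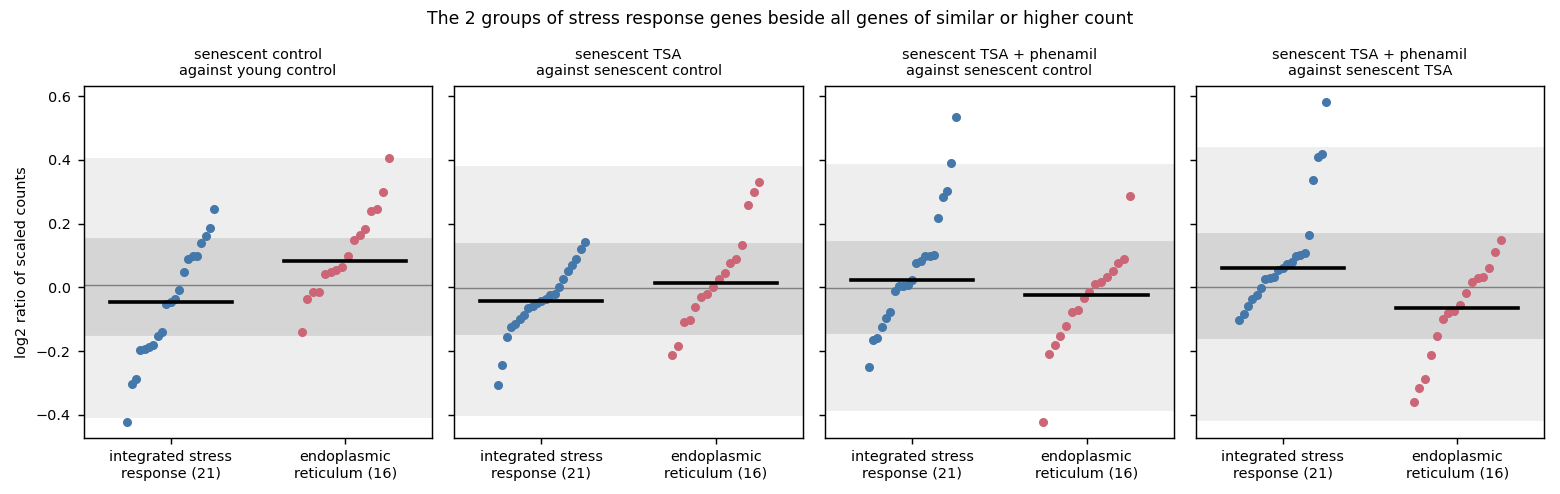
Log2 ratios of the 21 integrated stress response and 16 endoplasmic reticulum genes, 1 point per gene in order of size, with black lines at the medians. Shaded bands span percentiles 5 to 95 and 25 to 75 of the 8103 genes with at least 393 counts, and both medians lie inside the inner band in every panel.

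Other genes of the pathway were counted from lists that hold none of the 37, and their counts are read against the shares of all and of abundant genes above. Of 13 kinases, sensors and regulators of the stress pathways, 2 were higher and 3 lower in the senescent than in the young control. These are 15.4% and 23.1%, beside 18.1% and 16.7% of all genes and 39.3% and 24.4% of abundant genes. Mbtps2, a protease that cleaves ATF6, was past 1.2-fold there at 1.68 (1.28 to 2.22). Of 12 genes of eIF2, its exchange factor and its phosphatases, 5 were higher and 2 lower in the senescent than in the young control (3 and 2 with total counts). With TSA and phenamil 3 were higher and 2 lower than with TSA (3 and 4). Ppp1r15b was past 1.2-fold with TSA and phenamil at 1.57 (1.33 to 1.86) times the senescent control. Ppp1r15b, the constitutive counterpart of Ppp1r15a, was at 29.0, 21.2, 26.0 and 33.2 CPM, lowest in the senescent control. The exchange factor subunit Eif2b4 was past 1.2-fold lower with TSA at 0.665 (0.572 to 0.772), and the phosphatase gene Ppp1cb past 1.2-fold lower with TSA and phenamil than with TSA at 0.700 (0.630 to 0.779).

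Of 20 cytosolic aminoacyl-tRNA synthetases, several of which are ATF4 targets, 1 was higher and 4 lower in the senescent than in the young control (0 and 6 with total counts). The 20% lower lay between the 16.7% of all genes and the 24.4% of abundant genes. With TSA and phenamil 2 were higher and 9 lower than with TSA (2 and 11). Those 45% lower lay above 17.1% and 34.5%. With TSA 6 were higher and 1 lower than in the senescent control, the 30% higher being beside 15.7% and 31.4%. Of 19 other ATF4 targets with enough counts, of 22 listed, 4 were higher and 5 lower in the first comparison (3 and 7 with total counts) and 4 higher and 4 lower in the last (2 and 5). Past 1.2-fold were Gdf15, a stress-induced cytokine, at 0.336 (0.139 to 0.735) for senescent against young control from 9 against 27 counts, Vegfa at 0.693 (0.602 to 0.797) for TSA against senescent control, and Got1 at 0.706 (0.599 to 0.831) for TSA + phenamil against TSA. These targets had median log2 ratios of -0.025 and -0.000023 in the first and last comparison, which total counts made -0.0508 and -0.0365.

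Genes of protein entry into the endoplasmic reticulum leaned as the chaperone group did. Of 25 translocation and glycosylation genes, 15 were higher and 1 lower in the senescent than in the young control (13 and 2 with total counts), with a median log2 ratio of 0.14. The 60% higher lay above the shares of all genes (18.1%) and of abundant genes (39.3%). With TSA alone 10 were higher and 0 lower than in the senescent control, and with TSA and phenamil 4 were higher and 10 lower than there. With TSA and phenamil 3 were higher and 14 lower than with TSA alone (2 and 18 with total counts), with a median of -0.13. The last difference thus includes the higher levels of the TSA library. Sec61b, a subunit of the translocation channel, was past 1.2-fold in the first comparison at 1.26 (1.22 to 1.31), with levels of 508, 642, 659 and 559 CPM. Of 25 other folding and degradation genes with enough counts, of 28 listed, 8 were higher and 0 lower in the first comparison (7 and 1 with total counts). In the last 2 were higher and 7 lower (1 and 12). The 32% higher in the first lay above the 18.1% of all genes and below the 39.3% of abundant genes. The 28% lower in the last lay between their 17.1% and 34.5%. Selenok, a selenoprotein of the endoplasmic reticulum membrane, was past 1.2-fold higher with TSA at 1.39 (1.24 to 1.57) times the senescent control.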

How the data were processed

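RNA came from a TRIzol extraction and went into QuantSeq 3' mRNA-Seq FWD libraries, read from 1 end over 100 bp by a NextSeq 500, per the labels' protocols. STAR 2.7.10b, HTSeq 2.0.2 and mRatBN7.2 are named in the submitters' processing notes, which assign them no roles. The annotation, the use of strand and the handling of duplicates were not stated in those notes, and PCR copies of a molecule may be counted more than once. The deposited table holds raw counts per gene, per the file headers. The deposited log2 values equalled log2(count per 1e+06 + 1) within 0.000545 on library sizes implied by those values, which were 0.99867 to 1.001 times the TMM sizes used here.

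Library sizes were scaled by TMM with edgeR 4.0.16 in R 4.3.3. Its quasi-likelihood test was not possible with 0 residual degrees of freedom, so exact conditional binomial (Clopper-Pearson) intervals were computed for every gene with at least 40 counts (scipy 1.17.1, numpy 2.4.6, pandas 2.3.3, Python 3.11.15, with matplotlib 3.10.9 for figures). Log2 ratios used a prior count of 0.5. The interval method was tested on simulated data. Those data held counting error alone, which the interval assumes, so the test cannot speak to spread between libraries. Promoter windows and gene spans are RefSeq's, GRCr8, and all 37 genes were found by Entrez identifier. The build differs from mRatBN7.2, so the coordinates belong to the sequences printed and not to the reads. The alternatives used size factors from DESeq2 1.42.0, total counts, other filters, rules and prior counts, or the deposited log2 values.

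The 37 genes, the lists and the rules were chosen with earlier results of these data known. Named genes were to be those past 1.2-fold, up to 6 per direction, with Atf4, Ddit3, Asns, Hspa5, Hsp90b1 and Xbp1, and up to 3 per direction from each list. Others among the 37 are named to account for all of them, and the 10 genes of the plot of levels and the abundant-gene background were chosen after the values were seen.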

Additional observations from a re-analysis of the deposited data

How the results depend on the processing

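No paired analysis was possible because each condition is 1 library, and no library could be left out. The counts of the 37 genes past 1.2-fold were 1, 0, 3 and 2 in the order senescent against young control, TSA against senescent control, TSA + phenamil against senescent control and TSA + phenamil against TSA. With the interval past 1.5-fold they became 0, 0, 0 and 0. With an interval that merely excludes no change they became 21, 11, 15 and 16, and with the ratio alone past 1.2-fold 5, 3, 6 and 7. Scaled by total counts the last became 1, as Nupr1 dropped out. DESeq2 size factors, TMM without mitochondrial and ribosomal protein genes, and both other filters gave the same counts as the main setting. So did raw-count intervals on the library sizes implied by the deposited log2 values. Those sizes are nearly the TMM sizes, so this could hardly have differed. Only the medians used the deposited values themselves. Under each alternative the medians of both groups moved by less than the median half-width of a member's interval. Their signs held, with 1 exception: the integrated stress response median for TSA + phenamil against senescent control went from 0.022 to -0.0062 with total counts. In that comparison the same scaling took the median of all genes from -0.0006 to -0.029, so the group's median stayed above it. In each comparison it moved the median of all genes by less than 0.1. Depth limits the least abundant genes most: Atf3, with 93 to 109 counts per library, and Dnajb9, with 149 to 188, had intervals too wide to show a difference of 1.2-fold. Other genes were limited too. Slc7a5, with 176 to 231 counts, had 1.02 (0.826 to 1.26) for TSA + phenamil against TSA. Slc7a11, Creld2 and Sdf2l1 each had a ratio beyond 1.2-fold whose interval reached inside it. A gene not past 1.2-fold is thus not shown to differ by less.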
